A study of Mus musculus with 35 samples.

Results

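Peroxisome biogenesis and peroxisomal lipid oxidation were followed in iBAT, the interscapular brown adipose tissue of mice, through 33 genes in a table of 55421 genes. The 33 were taken by name from the count table, and were chosen with earlier results of these data known. All of them had 1 row there and passed the filter on low counts in every comparison below. RNA came from 35 male C57BL/6J mice aged 9 to 10 weeks, 5 kept at room temperature (RT, 24 °C) and 5 at 6 °C for each of 6 durations, the shortest 6 hours and the others whole days from 1 to 5. One iBAT pad of each mouse gave 1 library, made with a kit that reads the end of polyadenylated transcripts. Single housing and the lack of nest material are stated for the cold incubators alone, so cold and housing cannot be told apart.

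Peroxisomes are small organelles bounded by a single membrane that shorten fatty acids too long or too branched for mitochondria, and that make the precursors of ether lipids. Their proteins are made in the cytosol. The receptors Pex5 and Pex7 carry enzymes into the matrix, while Pex3, Pex16 and Pex19 place proteins in the membrane. Acyl-CoAs enter through ABCD transporters, lose carbons in steps catalysed by an oxidase, a bifunctional enzyme and a thiolase, and leave partly as carnitine esters made by Crot. Brown adipocytes are rich in both peroxisomes and mitochondria, and peroxisomes are known to multiply in this tissue in the cold.

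Libraries held 3846016 to 6047247 counts. Levels are given in CPM, counts per 1000000 on TMM-normalized library sizes, in the order of replicates 1 to 5, and a difference as log2 fold change from a fit of the 2 groups compared. The value after ± is the SD of 5 mice for a level and the standard error for a log2 fold change. A gene was called when its adjusted p was below 0.05 in edgeR's quasi-likelihood test with Benjamini-Hochberg adjustment over all genes tested. All 8 brown adipocyte markers were detected, and their summed level ran from 13813 to 17558 CPM in controls and from 14003 to 25019.8 in cold-exposed mice, with every mouse after 6 hours and 1 day above every control. Single brown adipocyte markers went both ways, with 1 of 8 called higher and 1 lower after 6 hours (21.5% and 21.0% of all genes). After 1 day 2 were higher and 3 lower (18.9% and 17.8%). Their median log2 fold change was 0.005 after 6 hours and −0.02 after 1 day. Endothelial markers (4 genes) summed to 229 to 281 CPM in controls, 393 to 489 after 6 hours, 457 to 545 after 1 day and 207 to 349 after 5 days. Of these 4, 2 were called higher and 1 lower after 6 hours, 3 higher and 0 lower after 1 day, and 0 higher and 1 lower after 5 days. At these times 17.8% to 21.5% of all genes were called in each direction. Macrophage markers (6 genes) summed to 44.3 to 115 CPM in controls and reached 213 after 3 days, and skeletal muscle markers (5 genes) varied between mice from 2.31 to 919 CPM. Of the 6 macrophage markers, 2 were called higher and 1 lower after 3 days (18.3% and 15.5% of all genes). Between 6 hours and 5 days, 4 of 6 macrophage markers were higher and 0 lower (19.0% and 16.9% of all genes). In that comparison 2 of 4 endothelial markers were lower and 0 higher. After 5 days, 3 of 5 skeletal muscle markers were lower than in controls and 0 higher (18.6% and 20.2% of all genes). Erythroid (5), proliferation (3) and stromal (3) markers summed to 1743 to 4994, 1.43 to 53.5 and 50.1 to 112 CPM, and 3 hepatocyte markers to at most 2.12. Of the 5 erythroid markers, 3 were called higher after 6 hours, 4 after 1 day and 3 after 5 days, with 0 lower. Then 21.5%, 18.9% and 20.2% of all genes were higher. The 2 proliferation markers tested were higher after 3, 4 and 5 days (18.3%, 19.4% and 20.2% of all genes). The part of these cells in the results was not tested, and in whole tissue fewer cells of a type and less RNA per cell cannot be told apart. Replicate 1 of the mice after 2 days had the lowest median correlation with its own group, 0.940 against 0.942 to 0.969 for the other mice.

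More of the peroxisomal genes were called lower than higher after 6 hours of cold, and more higher than lower after 5 days. After 6 hours, 13 of the 33 were called lower, or 39.4%, where 21.0% of all genes were, and 2 were called higher (6.06%, against 21.5%). After 1 day 9 were higher and 7 lower (18.9% and 17.8% of all genes). The numbers were 10 and 6 after 2 days (16.4% and 14.7%), 9 and 7 after 3 days (18.3% and 15.5%) and 12 and 8 after 4 days (19.4% and 18.6%). After 5 days, 16 of 33 were higher, or 48.5%, against 20.2% of all genes, and 4 were lower (18.6%). The median log2 fold change of the 33 was −0.18 after 6 hours, 0.13 after 2 days and 0.31 after 5 days, while that of all genes tested was between −0.03 and −0.01 in each comparison with controls. The 6 comparisons share the same 5 control mice.

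**Figure D1:**
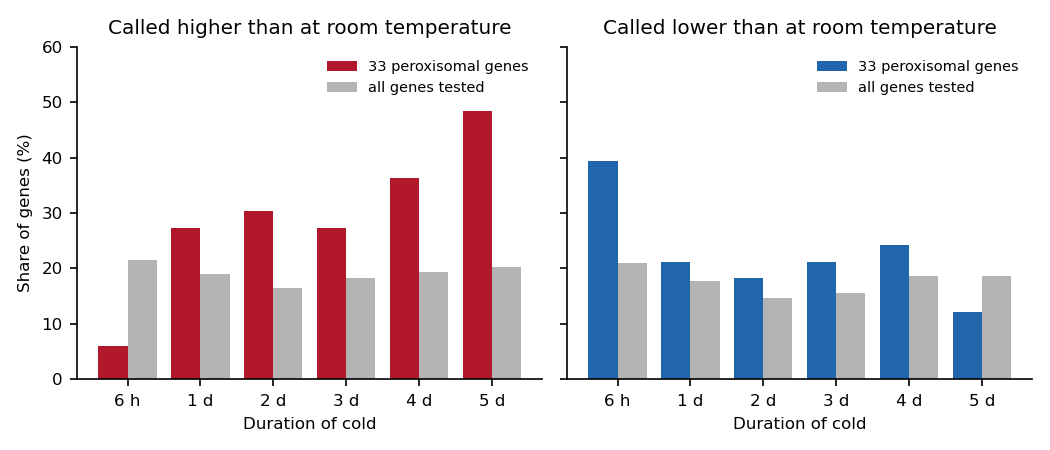
Share of the 33 peroxisomal genes (coloured bars) and of all genes tested (grey bars) called higher (left) or lower (right) than at room temperature, in percent, for each duration of cold (5 mice per group). After 6 hours 39.4% of the peroxisomal genes were lower and 6.06% higher, and after 5 days 12.1% were lower and 48.5% higher.

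These counts depended on how libraries were scaled. With library totals alone in place of TMM factors, the median of all genes moved to between −0.25 and −0.15 in the comparisons with controls. The members called higher and lower were then 1 and 18 after 6 hours, 5 and 14 after 1 day, 5 and 10 after 2 days, 8 and 10 after 3 days, 8 and 10 after 4 days and 12 and 11 after 5 days. On that scale 12.7%, 10.7%, 8.76%, 12.4%, 13.0% and 11.1% of all genes were called higher at these times, and 32.1%, 30.2%, 26.1%, 22.4%, 24.2% and 31.2% lower. The 11 of 33 lower after 5 days were near that share. The median of the members after 5 days was 0.08 on that scale, and after 2 days it changed sign, to −0.09. Leaving out room temperature replicate 1 raised the members called higher after 6 hours to 5 of 33, where 2210 of 10803 genes were higher. Leaving out replicate 2 of 4 days lowered the members called lower after 4 days to 5, where 1835 of 11349 genes were lower. Without replicate 1 of 2 days, 11 members were higher and 6 lower after 2 days, where 1760 and 1625 of 10812 genes were.

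The change from early to late cold was tested directly, between the mice after 5 days and those after 6 hours, without controls. Of the 33 members, 19 were higher after 5 days (19.0% of all genes were) and 1 was lower (16.9%). The median difference was 0.49 on the log2 scale, against −0.01 for all genes tested. The rise was not particular to the members. Of 29 other peroxisomal genes tested, listed further below, 17 were higher (58.6%) and 1 lower (3.45%), with a median of 0.44. Of 16 genes of mitochondrial fatty acid oxidation, 11 were higher (68.8%) and 0 lower, with a median of 0.34. With library totals alone, 17 members were higher and 2 lower (16.1% and 18.0% of all genes), and the calls of Pex14 (0.34) and Pex16 (0.36) were lost. Pex14 also lost its call without the 6-hour replicate 1, 2 or 4 or the 5-day replicate 4 or 5 (0.31 to 0.39), and Pex16 without the 6-hour replicate 2 or 4 or the 5-day replicate 4 (0.28 to 0.37). The rises were largest in Hacl1 (1.88), Ehhadh (1.87), Acaa1b (1.69) and Crot (1.45), which belong to α-oxidation, β-oxidation and acyl export. Phyh, the enzyme that acts just before Hacl1, was the gene called lower, with a log2 fold change of −0.38 ± 0.10 (edgeR adjusted p = 0.00595). Pxmp2 had a larger difference with a wider error, −0.63 ± 0.25 (edgeR adjusted p = 0.0504), and was called lower with DESeq2 (−0.64), RLE factors (−0.63), library totals (−0.69) and no filter (−0.63).

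**Figure D2:**
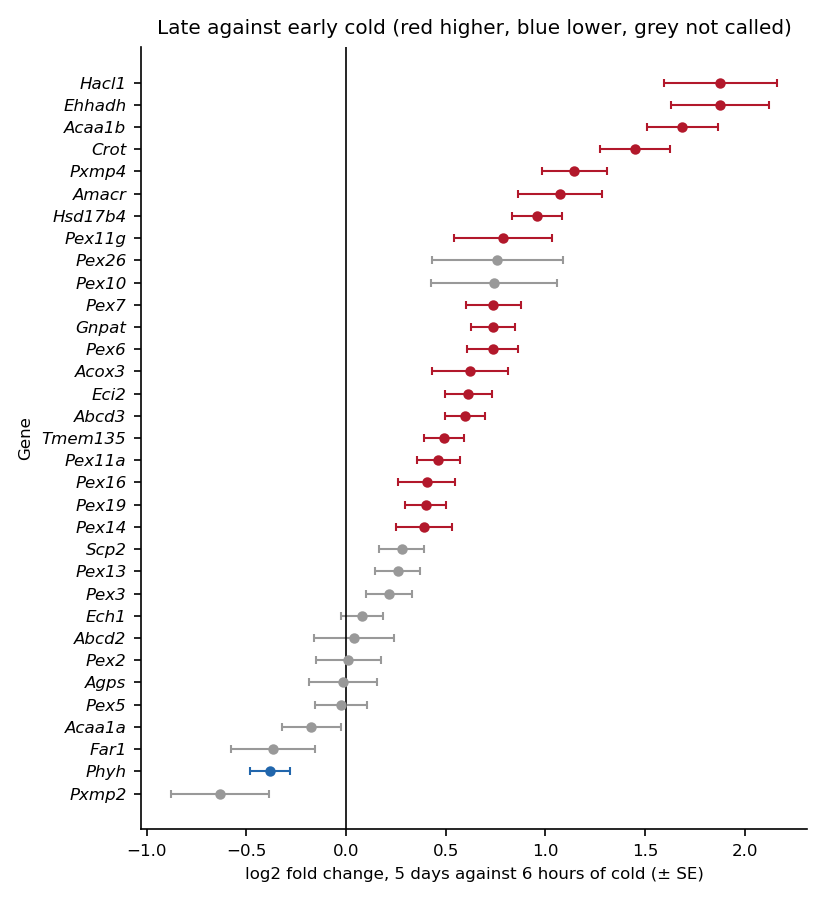
Log2 fold change of each peroxisomal gene (rows) after 5 days against 6 hours of cold, with its standard error as a bar (5 mice per group); red points were called higher, blue lower and grey not called. Red points lie between 0.39 (Pex14) and 1.88 (Hacl1), and the blue point is Phyh at −0.38.

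Over the 6 comparisons with controls, 2 members were called higher at every duration (Pex13 and Tmem135) and 4 lower at every duration (Abcd2, Acaa1a, Phyh and Pxmp2). Another 12 were called higher at 1 or more durations and never lower, and 7 lower at 1 or more and never higher. Acaa1b and Pxmp4 were called lower after 6 hours and higher later, and Pex2, Pex5, Pex10, Ech1, Agps and Far1 were never called. In single comparisons with controls 14.7% to 21.5% of all genes were called in each direction. How many of all genes were called at every duration, or at 1 or more, was not counted, so these numbers cannot be set against all genes.

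**Figure D3:**
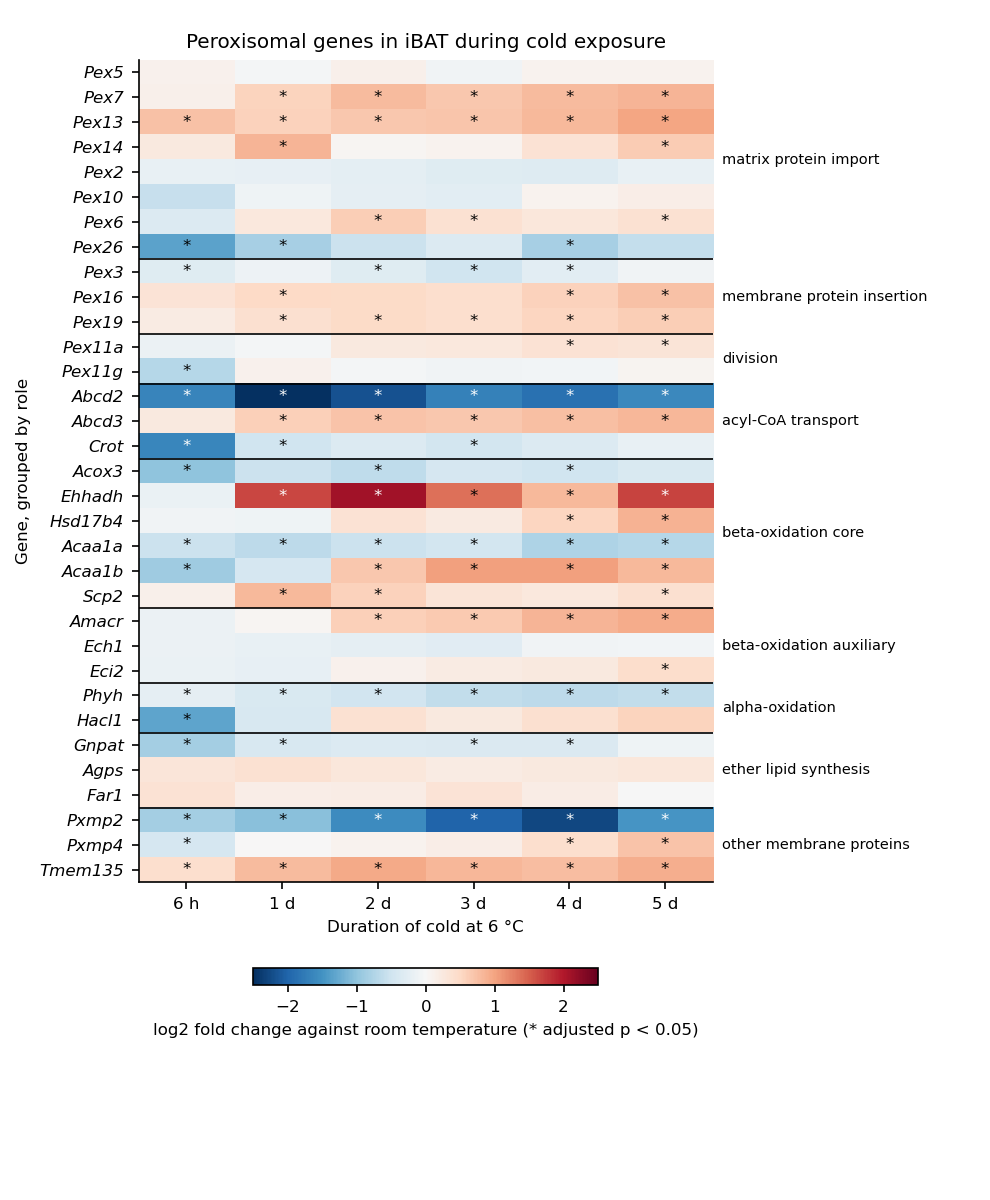
Log2 fold change against room temperature (colour) of the 33 peroxisomal genes (rows, grouped by role) at each duration of cold (columns), with an asterisk where the adjusted p was below 0.05 (5 mice per group). Abcd2 and Pxmp2 are the darkest blue rows, at −2.49 after 1 day and −2.27 after 4 days, and Ehhadh the darkest red, at 2.10 after 2 days.

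The machinery that imports matrix enzymes changed unevenly. Among its 8 members, 1 was higher and 1 lower after 6 hours, 3 were higher and 1 lower after 1 day, and 4 were higher and none lower after 5 days, in comparisons where 17.8% to 21.5% of all genes were called in each direction. Pex13, which forms the docking site in the membrane together with Pex14, lies on chromosome 11 from 23646479 to 23665959 (GRCm38, as are all gene positions here). Pex13 stood at 39.3, 39.5, 34.8, 29.2 and 32.7 CPM in controls, 61.03, 62.8, 60.4, 55.6 and 57.2 after 6 hours and 45.5, 56.9, 61.9, 34.7 and 63.4 after 1 day. Every mouse after 6 hours was above every control, and 4 of 5 were after 1 day. For Pex13 the later mice had 43.3, 61.7, 59.3, 60.1 and 59.1 CPM after 2 days and 51.6, 64.2, 59.96, 50.8 and 53.97 after 3 days. Pex13 then stood at 60.5, 62.7, 58.04, 60.5 and 69.2 after 4 days and 66.4, 55.6, 74.7, 85.4 and 69.5 after 5 days, again with no overlap with controls at any of these times. Its log2 fold change was 0.74 ± 0.10 (edgeR adjusted p = 2.1e-05) after 6 hours and 0.99 ± 0.12 (edgeR adjusted p = 6.6e-06) after 5 days, and these 2 times did not differ past the threshold (0.26 ± 0.11, edgeR adjusted p = 0.0784). With library totals alone, its call after 1 day was lost (0.58 became 0.35). Exons of Pus10 on the opposite strand overlap it, and Pus10 had 13.6% as many counts.

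Pex14, its docking partner, was higher after 1 day (0.84 ± 0.17, edgeR adjusted p = 0.00103) and 5 days (0.64 ± 0.15, edgeR adjusted p = 0.00203). It was not called after 2 days, at 31.5 ± 5.53 CPM against 30.1 ± 6.62 in controls. Pex7, the receptor for enzymes with an N-terminal targeting signal such as thiolase, Phyh and Agps, rose from 12.6 ± 2.08 CPM to 22.9 ± 2.89 after 5 days. Its log2 fold change was 0.12 and not called after 6 hours, and between 0.56 and 0.86 and called at each of the later times, with all 5 mice above all controls. The call of Pex7 after 1 day was lost with library totals alone (0.33). Of its cargo, Acaa1a and Phyh fell at every duration, Acaa1b was called lower after 6 hours and higher from 2 days on, and Agps was never called. Pex5, the receptor for most other matrix enzymes, had log2 fold changes between −0.08 and 0.13, none called.

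The receptors are pulled back out of the membrane by an ATPase that contains Pex6, held at the membrane by Pex26. Pex26 was called lower at 3 durations and Pex6 higher at 3, and the 2 genes were not tested against each other. Pex26, on chromosome 6 from 121183667 to 121198837, had few counts, 20 to 46 per control library and 5 to 18 after 6 hours. Pex26 stood at 3.85, 7.36, 5.87, 5.42 and 8.32 CPM in controls, 2.88, 2.08, 2.68, 1.18 and 3.33 after 6 hours and 4.08, 3.43, 3.58, 2.81 and 3.44 after 1 day. Every mouse after 6 hours was below every control, and 4 of 5 were after 1 day. Pex26 then had 4.83, 3.71, 6.11, 3.41 and 2.88 CPM after 2 days, 6.30, 6.98, 3.38, 3.47 and 4.37 after 3 days, 2.53, 2.58, 4.84, 3.61 and 3.79 after 4 days and 2.79, 3.26, 5.66, 5.11 and 3.78 after 5 days. It was called lower after 6 hours (−1.35 ± 0.29, edgeR adjusted p = 0.00126), after 1 day (−0.82 ± 0.25, edgeR adjusted p = 0.0150) and after 4 days (−0.83 ± 0.26, edgeR adjusted p = 0.0193). The last of these calls was lost without room temperature replicate 5 or without the 4-day replicate 2 (−0.72 to −0.70). Pex6 was not called after 6 hours (−0.35 ± 0.14, edgeR adjusted p = 0.0536) and was higher after 2 days (0.61 ± 0.17, edgeR adjusted p = 0.0117) and 5 days (0.38 ± 0.12, edgeR adjusted p = 0.0154), and both calls were lost with library totals alone (0.37 and 0.15). Its call after 3 days (0.39) was lost without room temperature replicate 1, 2 or 5 or the 3-day replicate 1, 2 or 5 (0.28 to 0.40). Between 6 hours and 5 days Pex6 rose by 0.73 ± 0.13 (edgeR adjusted p = 1.1e-04), and Pex26 had a difference of like size that was not called (0.76 ± 0.33, edgeR adjusted p = 0.0750), with means of 2.43 ± 0.832 and 4.12 ± 1.22 CPM. Pex2 and Pex10, the ubiquitin ligases that mark the receptors for recycling, were called at no duration.

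The 3 genes that insert membrane proteins also split. Pex19, the chaperone that carries membrane proteins in the cytosol, rose from 112 ± 14.8 to 171 ± 17.3 CPM after 5 days (0.61 ± 0.11, edgeR adjusted p = 2.5e-04), and was called from 1 day on. With library totals alone its calls after 1 day (0.18) and 2 days (0.25) were lost. Pex16, which recruits Pex3, was higher after 5 days (0.74 ± 0.20, edgeR adjusted p = 0.00590), with 3 of 5 mice above all controls. Its calls after 1 and 4 days (0.49 and 0.57) were lost with library totals alone (0.28 and 0.43). With 1 mouse removed, the first was lost in 9 of 10 fits, all but the one without room temperature replicate 1 (0.33 to 0.54), and the second in 5, without room temperature replicate 3, 4 or 5 or the 4-day replicate 1 or 4 (0.42 to 0.59). Pex3, which docks Pex19 at the membrane, fell from 77.6 ± 4.41 to 54.7 ± 7.29 CPM after 3 days (−0.50 ± 0.10, edgeR adjusted p = 0.00147), with all 5 mice below all controls, and was not called after 5 days (−0.08 ± 0.10, edgeR adjusted p = 0.572). Smaller falls of Pex3 were called after 6 hours (−0.29), 2 days (−0.31) and 4 days (−0.27). They were lost, respectively, without room temperature replicate 1 or 2 or the 6-hour replicate 2, 3 or 4, without the 2-day replicate 2, and without the 4-day replicate 1, 2 or 4. Peroxisome division was represented by Pex11a and Pex11g. Pex11a, the member of that family that is inducible by peroxisome proliferators, had 165 ± 26.5 CPM in controls and 206 ± 25.8 after 5 days, a log2 fold change of 0.31 ± 0.12 (edgeR adjusted p = 0.0422). That call was lost without room temperature replicate 2, 4 or 5 and without the 5-day replicate 1 or 3 (0.24 to 0.33), and with library totals alone (0.08). Pex11a was higher after 5 days than after 6 hours by 0.46 ± 0.11 (edgeR adjusted p = 0.00211). Pex11g was called lower after 6 hours (−0.71 ± 0.24, edgeR adjusted p = 0.0227), a call lost without room temperature replicate 4 or the 6-hour replicate 2 or 4 (−0.63 to −0.53), and at no other time. Exons of Gm44775 on the opposite strand overlap it, with 12.2% as many counts.

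The largest fall among the 33 was in Abcd2, a transporter of very long-chain and unsaturated acyl-CoAs, while its relative Abcd3, which carries long-chain, branched and dicarboxylic acyl-CoAs, rose. Abcd2, on chromosome 15 from 91145871 to 91191799, stood at 69.6, 52.1, 72.8, 54.8 and 40.9 CPM in controls, 19.1, 19.2, 19.01, 23.3 and 13.3 after 6 hours and 10.95, 9.37, 13.2, 13.02 and 4.59 after 1 day. For Abcd2 the values were 13.3, 7.19, 8.45, 19.2 and 17.3 CPM after 2 days, 10.03, 20.1, 15.1, 26.97 and 16.96 after 3 days, 17.2, 15.3, 12.1, 19.8 and 15.9 after 4 days and 17.2, 30.8, 13.7, 18.7 and 14.7 after 5 days. No cold-exposed mouse at any duration reached the lowest control. It was 3.14-fold lower after 6 hours, a log2 fold change of −1.65 ± 0.16 (edgeR adjusted p = 4.0e-07), 5.62-fold lower after 1 day (−2.49 ± 0.22, edgeR adjusted p = 2.9e-07) and 3.06-fold lower after 5 days (−1.61 ± 0.20, edgeR adjusted p = 4.9e-06). Between 6 hours and 5 days its log2 fold change was 0.04 with a standard error of 0.20, and its sign turned with library totals alone.

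Abcd3, on chromosome 3 from 121758774 to 121815302, stood at 335, 236, 273, 225 and 182 CPM in controls, 339.7, 265, 285, 327 and 284 after 6 hours and 402, 368, 342, 325 and 468 after 1 day. For Abcd3 the mice had 297, 411, 516, 346 and 489.7 CPM after 2 days, 398, 379, 372, 411 and 420.2 after 3 days, 380.0, 404, 392, 484 and 456 after 4 days and 457, 429, 513, 442 and 407 after 5 days. From 3 days on, no mouse overlapped the controls. Abcd3 was not called after 6 hours (0.24 ± 0.13, edgeR adjusted p = 0.151), rose after 1 day (0.60 ± 0.14, edgeR adjusted p = 0.00349) and was 1.79-fold higher after 5 days (0.84 ± 0.13, edgeR adjusted p = 7.0e-05). No stretch of 76 bases, the read length, in the last 500 bases of coding transcripts of Abcd2 occurs in transcripts of Abcd3, or the reverse.

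Crot, the octanoyltransferase that prepares shortened acyl groups for export, fell early and rose again later. Crot lies on chromosome 5 from 8966033 to 8997324 and had 31.8, 26.7, 37.6, 35.5 and 31.7 CPM in controls, 11.5, 6.70, 16.1, 9.90 and 9.43 after 6 hours and 20.4, 23.1, 29.5, 14.5 and 27.1 after 1 day. Later values of Crot were 21.9, 25.04, 28.6, 22.8 and 31.1 after 2 days, 26.8, 23.2, 19.9, 27.4 and 21.1 after 3 days, 19.5, 26.9, 18.1, 40.7 and 25.1 after 4 days and 32.6, 27.1, 27.5, 31.2 and 26.3 after 5 days. The 5 mice after 6 hours were all below the controls and below the 5 mice after 5 days. It was 3.09-fold lower at that time, on the log2 scale −1.63 ± 0.17 (edgeR adjusted p = 8.3e-07). Crot was also called lower after 1 day (−0.51) and 3 days (−0.46 ± 0.13, edgeR adjusted p = 0.0113), and not after 5 days (−0.18 ± 0.12, edgeR adjusted p = 0.247). The call after 1 day was lost without room temperature replicate 3 or 4 or without that day's replicate 1 (−0.47 to −0.45), while with library totals alone Crot was called lower at all 6 durations, with −0.41 after 5 days.

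Of the 6 genes of the β-oxidation core, 3 were lower and none higher after 6 hours (21.0% and 21.5% of all genes), and 1 was lower and 4 higher after 5 days (18.6% and 20.2%). Ehhadh, the L-bifunctional enzyme that handles dicarboxylic acids among others, rose most. Ehhadh is on chromosome 16 from 21761287 to 21787807 and stood at 7.90, 12.00, 5.44, 3.28 and 5.79 CPM in controls, 9.69, 6.47, 7.38, 5.19 and 2.59 after 6 hours and 28.8, 18.97, 13.96, 17.6 and 30.8 after 1 day. For Ehhadh the values were 21.7, 38.95, 40.1, 19.7 and 27.1 CPM after 2 days, 18.7, 19.3, 14.1, 11.9 and 25.96 after 3 days, 12.8, 10.7, 11.7, 7.42 and 17.5 after 4 days and 27.5, 17.2, 20.3, 18.1 and 28.5 after 5 days. Mice after 6 hours overlapped the controls, and all mice after 1, 2 and 5 days were above them. The log2 fold change was −0.18 ± 0.33 (edgeR adjusted p = 0.698) after 6 hours, 1.68 ± 0.28 (edgeR adjusted p = 2.2e-04) after 1 day, 2.10 ± 0.28 (edgeR adjusted p = 4.5e-05) after 2 days, or 4.28-fold, and 1.69 ± 0.25 (edgeR adjusted p = 4.3e-05) after 5 days. After 4 days the value was 0.81 ± 0.28 (edgeR adjusted p = 0.0328), with 2 of 5 mice above all controls. That call was lost without room temperature replicate 3, 4 or 5 and without the 4-day replicate 1, 3 or 5 (0.62 to 0.82), and with library totals alone (0.67). The value after 6 hours turned sign without room temperature replicate 2 (0.12) and without the 6-hour replicate 5 (0.052).

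Hsd17b4, the D-bifunctional enzyme that acts on branched and very long-chain substrates, rose later. Hsd17b4 was at 79.2 ± 10.8 CPM in controls, 76.1 ± 8.77 after 6 hours and 146 ± 28.1 after 5 days, and was called after 4 days (0.54 ± 0.15, edgeR adjusted p = 0.00901) and 5 days (0.88 ± 0.13, edgeR adjusted p = 4.5e-05). Scp2, whose product includes a thiolase for branched substrates, had its highest mean after 1 day, 224 ± 39.1 against 127 ± 22.5 CPM (0.82 ± 0.14, edgeR adjusted p = 2.2e-04). It was also called after 2 days (0.57) and 5 days (0.41), and both calls were lost with library totals alone (0.36 and 0.17). Of 76-base windows in the ends of its transcripts, 28.9% also occur in the pseudogene Scp2-ps2, which makes its count uncertain.

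Acox3, the oxidase for branched acyl-CoAs, fell early. Acox3 lies on chromosome 5 from 35583040 to 35615352 and stood at 12.1, 17.6, 13.5, 16.4 and 15.4 CPM in controls, 8.64, 6.01, 7.83, 7.78 and 7.95 after 6 hours and 10.4, 8.68, 9.13, 18.1 and 6.20 after 1 day. Acox3 then had 9.65, 9.27, 8.99, 12.9 and 7.79 CPM after 2 days, 12.6, 8.21, 8.72, 14.6 and 11.6 after 3 days, 9.76, 8.95, 9.33, 9.62 and 15.5 after 4 days and 10.95, 15.9, 11.1, 10.02 and 10.4 after 5 days. All mice after 6 hours were below all controls, and 4 of 5 were after 5 days, while 1 mouse after 1 day was above the highest control. The log2 fold change was −0.998 ± 0.16 (edgeR adjusted p = 7.8e-05) after 6 hours, −0.64 ± 0.17 (edgeR adjusted p = 0.00848) after 2 days and −0.51 ± 0.17 (edgeR adjusted p = 0.0291) after 4 days. The call after 4 days was lost without room temperature replicate 2, 4 or 5 and without that day's replicate 1, 2, 3 or 4 (−0.50 to −0.43). It was not called after 5 days (−0.38 ± 0.17, edgeR adjusted p = 0.0815), but was with library totals alone (−0.61). Between 6 hours and 5 days Acox3 rose by 0.62 ± 0.19 (edgeR adjusted p = 0.0151), a call lost without the 5-day replicate 2 (0.49).

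The 2 peroxisomal 3-ketoacyl-CoA thiolases, both on chromosome 9, catalyse the last step of each cycle. Both were called lower after 6 hours, and from 2 days on Acaa1b was called higher while Acaa1a stayed lower. The 2 genes were not tested against each other. Acaa1a, on chromosome 9 from 119339676 to 119350299, stood at 44.1, 37.95, 32.2, 38.4 and 38.4 CPM in controls, 29.1, 30.03, 26.6, 21.9 and 26.8 after 6 hours and 20.8, 23.8, 24.5, 30.9 and 21.8 after 1 day. For Acaa1a the mice had 26.99, 25.5, 26.97, 31.5 and 21.9 CPM after 2 days, 25.2, 30.6, 22.6, 29.9 and 31.1 after 3 days, 26.2, 19.5, 21.9, 22.9 and 21.5 after 4 days and 21.3, 31.5, 23.7, 23.2 and 18.3 after 5 days. No cold-exposed mouse at any duration reached the lowest control. Its log2 fold change was −0.53 ± 0.12 (edgeR adjusted p = 0.00149) after 6 hours and −0.71 ± 0.14 (edgeR adjusted p = 6.5e-04) after 5 days. Acaa1b, on chromosome 9 from 119148023 to 119157093, stood at 29.9, 22.3, 16.96, 18.9 and 17.2 CPM in controls, 9.43, 8.08, 18.3, 12.97 and 9.06 after 6 hours and 21.2, 11.7, 20.8, 13.8 and 10.8 after 1 day. For Acaa1b the mice had 40.3, 32.00, 33.1, 32.3 and 31.1 CPM after 2 days, 51.1, 42.3, 43.2, 36.6 and 40.9 after 3 days, 35.4, 50.8, 47.7, 50.7 and 29.2 after 4 days and 39.3, 36.9, 39.7, 31.2 and 37.4 after 5 days. Mice after 6 hours lay mostly below the controls, with 4 of 5 under the lowest, and all mice after 2, 3 and 5 days lay above the highest. The log2 fold change of Acaa1b was −0.88 ± 0.21 (edgeR adjusted p = 0.00260) after 6 hours, 1.03 ± 0.15 (edgeR adjusted p = 7.8e-05) after 3 days and 0.80 ± 0.15 (edgeR adjusted p = 3.5e-04) after 5 days. Its call after 2 days (0.68) was lost with library totals alone (0.46). Between 6 hours and 5 days Acaa1b rose by 1.69 ± 0.18 (edgeR adjusted p = 3.3e-07), or 3.22-fold, and Acaa1a differed by −0.17 ± 0.15 (edgeR adjusted p = 0.378).

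These genes are near-identical in part, which makes their separate counts uncertain. Of the 76-base windows in the last 500 bases of their coding transcripts, 383 of 1671 of Acaa1a also occur in Acaa1b and 123 of 425 of Acaa1b also occur in Acaa1a. Exons of Myd88 on the opposite strand overlap Acaa1a, and Myd88 had 53.2% as many counts. Because their courses differed, their promoters are shown, from 250 bases before to 50 bases after the start in RefSeq (GRCm38.p6), with CCAAT on either strand, the core of the box bound by NF-Y, in capitals. Acaa1a is at chr9:119341044-119341343 on the plus strand and Acaa1b at chr9:119157044-119157343 on the minus strand, and each holds it at 4 places, of which 1 pair overlaps in Acaa1b. The window of Acaa1a lies inside the gene position given above, which begins at 119339676, because the start in RefSeq differs from it. That of Acaa1b spans the end of its gene position, 119157093.

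Acaa1a: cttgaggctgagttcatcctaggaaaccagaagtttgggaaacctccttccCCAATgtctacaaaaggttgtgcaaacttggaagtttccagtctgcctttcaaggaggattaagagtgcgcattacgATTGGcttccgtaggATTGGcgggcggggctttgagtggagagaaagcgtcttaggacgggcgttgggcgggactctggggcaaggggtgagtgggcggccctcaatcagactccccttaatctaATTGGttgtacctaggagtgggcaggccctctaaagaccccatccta

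Acaa1b: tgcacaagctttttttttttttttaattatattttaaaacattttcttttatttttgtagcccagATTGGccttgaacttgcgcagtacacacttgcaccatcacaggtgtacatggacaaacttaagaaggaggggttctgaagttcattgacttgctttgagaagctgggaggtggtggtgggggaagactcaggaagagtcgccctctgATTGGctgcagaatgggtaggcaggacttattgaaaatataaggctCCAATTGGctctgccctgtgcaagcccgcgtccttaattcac

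CCAAT, chosen after the sequences were seen, occurs in 37.4% of all 32851 promoters of this length and in 14 of the 31 promoters found for 27 of the members (45.2%). The receptors of the PPAR family bind a direct repeat of AGGTCA with 1 base between its copies. Read on either strand, that repeat occurs in 0.0396% of all promoters and in 0 of the 31, and the same letters with TCA directly before them, a site of ERR receptors, in 0.423% and in 0 of the 31. AGGTCA alone occurs in 16.3% of all promoters and in 3 of the 31, those of Pex11g, Phyh and Scp2. No match says only that these letters are not in these windows.

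Of the auxiliary enzymes of β-oxidation, none was called after 6 hours, and 2 of 3 were higher after 5 days (20.2% of all genes). Amacr, the racemase that turns branched acyl-CoAs into the form that can be oxidized, rose from 11.1 ± 1.36 to 21.2 ± 4.16 CPM after 5 days (0.92 ± 0.15, edgeR adjusted p = 1.3e-04) and was called from 2 days on. Its call after 2 days (0.60) was lost with library totals alone (0.38). Eci2, an enoyl-CoA isomerase for unsaturated chains, was called after 5 days (0.44 ± 0.12, edgeR adjusted p = 0.00620), and that call was lost with library totals alone (0.20). Ech1, a dienoyl-CoA isomerase found in both peroxisomes and mitochondria, had log2 fold changes between −0.28 and −0.08, none called.

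**Figure D4:**
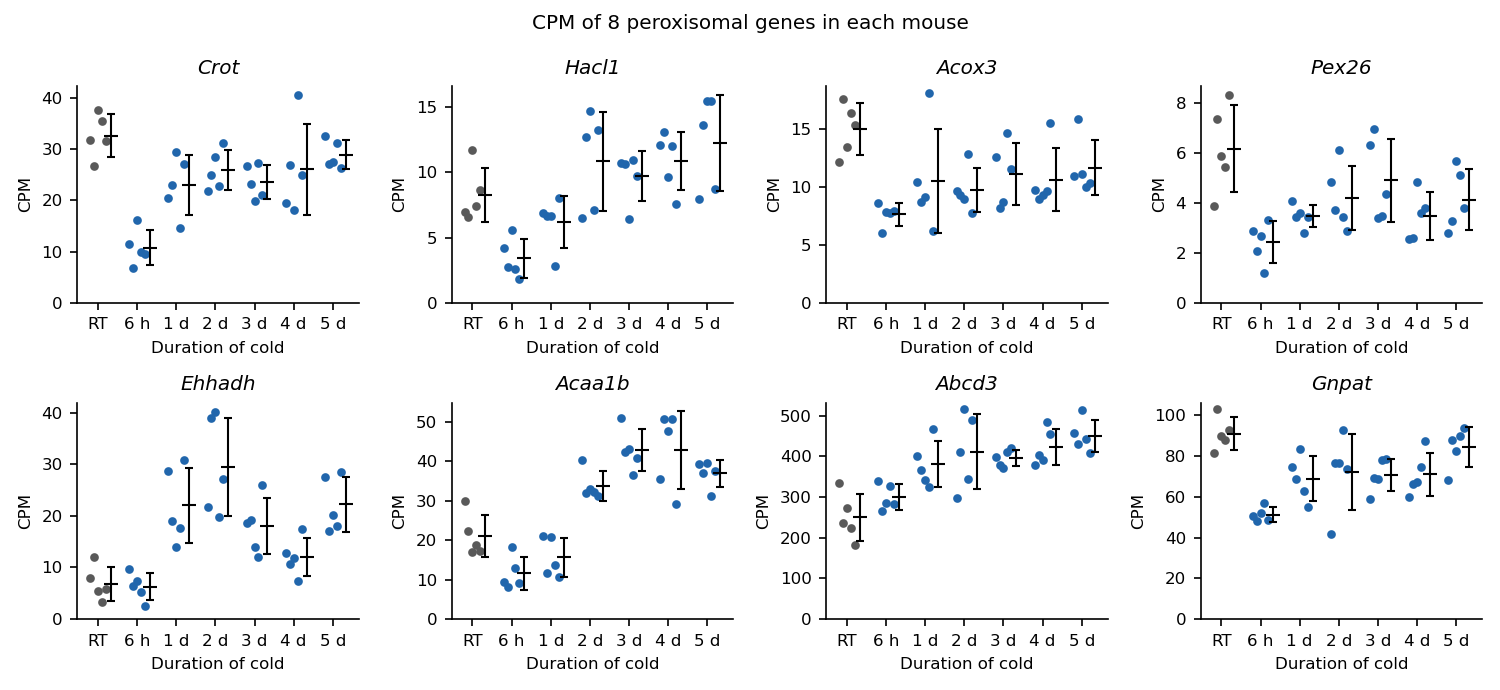
CPM (vertical axes, each from 0) of 8 peroxisomal genes in each mouse (points, grey for room temperature, blue for cold) at each duration of cold, with the mean and SD of the 5 mice beside them in black. Crot and Hacl1 are lowest after 6 hours and higher from 1 day on, the means of Acaa1b lie above that of controls from 2 days on and those of Ehhadh from 1 day on.

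In α-oxidation, which removes 1 carbon from branched acids such as phytanic acid, consecutive enzymes took different courses. Phyh, the hydroxylase of the first step, is on chromosome 2 from 4919019 to 4938730 and stood at 373, 370.2, 369.9, 427 and 415 CPM in controls, 332, 334, 336, 344 and 357 after 6 hours and 294, 273, 327, 350.4 and 265 after 1 day. For Phyh the values were 277, 271, 286, 320.3 and 261 CPM after 2 days, 234, 288, 209, 250.0 and 287 after 3 days, 219, 239, 248, 297 and 253 after 4 days and 231, 269, 308, 269.9 and 216 after 5 days. All cold-exposed mice were below all controls at every duration. The fall after 6 hours was small, −0.22 ± 0.08 (edgeR adjusted p = 0.0423), and its call was lost in 7 of 10 fits with 1 mouse removed, those without room temperature replicate 4 or 5 or any mouse of that duration (−0.23 to −0.18). It was −0.65 ± 0.10 (edgeR adjusted p = 6.3e-05) after 4 days and −0.61 ± 0.11 (edgeR adjusted p = 2.6e-04) after 5 days.

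Hacl1, the lyase of the next step, lies on chromosome 14 from 31598730 to 31641286 and stood at 6.94, 6.58, 11.7, 7.39 and 8.68 CPM in controls, 4.19, 2.77, 5.59, 2.59 and 1.85 after 6 hours and 6.87, 6.63, 6.62, 2.81 and 8.04 after 1 day. For Hacl1 the mice had 6.48, 12.8, 14.7, 7.09 and 13.3 CPM after 2 days, 10.7, 10.7, 6.41, 10.98 and 9.77 after 3 days, 12.1, 13.1, 9.67, 12.03 and 7.57 after 4 days and 7.95, 13.7, 15.5, 15.5 and 8.76 after 5 days. Mice after 6 hours were all below the controls, and later mice overlapped them. The log2 fold change was −1.31 ± 0.28 (edgeR adjusted p = 9.7e-04) after 6 hours and 0.57 ± 0.22 (edgeR adjusted p = 0.0525) after 5 days, which was not called here but was with DESeq2 (0.56), without the filter on low counts (0.60) and with a replicate block (0.55). Between 6 hours and 5 days Hacl1 rose by 1.88 ± 0.28 (edgeR adjusted p = 2.8e-05). Hacl1 had 10 to 25 counts per library after 6 hours. Its windows are shared to 38.2% with Gm49387 on the same strand, which had 0 counts, and exons of Btd on the opposite strand overlap it with 131% as many counts.

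Ether lipid synthesis starts with Gnpat and Agps, which act one after the other inside the peroxisome, and draws on fatty alcohols made by Far1. Gnpat fell from 91.01 ± 7.95 CPM in controls to 51.3 ± 3.62 after 6 hours, with all 5 mice below all controls. That was a log2 fold change of −0.85 ± 0.10 (edgeR adjusted p = 1.7e-06). Gnpat was also called lower after 1, 3 and 4 days (−0.40, −0.36 and −0.37), and not after 5 days, when it had 84.5 ± 9.93 CPM (−0.12 ± 0.11, edgeR adjusted p = 0.416). Between 6 hours and 5 days it rose by 0.74 ± 0.11 (edgeR adjusted p = 2.1e-05). Agps was at 11.2 ± 1.42 CPM in controls and 13.7 ± 1.56 after 5 days, and Far1 at 6.43 ± 1.01 and 6.51 ± 1.21. Neither was called at any duration. Exons of 2810004N23Rik on the opposite strand overlap Gnpat, with 42.5% as many counts.

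Of the other membrane proteins, Pxmp2 fell and Tmem135 rose at every duration. Pxmp2, which forms a channel for small molecules, lies on chromosome 5 from 110274282 to 110286186 and stood at 27.8, 33.5, 12.8, 33.99 and 37.5 CPM in controls, 26.7, 13.2, 12.7, 12.3 and 18.3 after 6 hours and 13.7, 7.77, 17.01, 24.5 and 8.50 after 1 day. For Pxmp2 the values were 10.4, 7.65, 8.99, 12.9 and 10.1 CPM after 2 days, 7.70, 7.59, 3.56, 6.93 and 11.3 after 3 days, 4.16, 5.16, 3.63, 12.4 and 5.41 after 4 days and 9.66, 16.5, 11.98, 9.04 and 5.98 after 5 days. Room temperature replicate 3 was far below the other controls, so 2 of 5 mice after 6 hours and all 5 after 3 and 4 days were below all controls. The log2 fold change was −0.84 ± 0.25 (edgeR adjusted p = 0.0103) after 6 hours, −2.27 ± 0.30 (edgeR adjusted p = 2.3e-05) after 4 days, or 4.83-fold lower, and −1.48 ± 0.26 (edgeR adjusted p = 2.2e-04) after 5 days.

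Tmem135, a membrane protein of peroxisomes and mitochondria, is on chromosome 7 from 89139714 to 89404222 and stood at 79.4, 69.1, 75.9, 72.7 and 50.8 CPM in controls, 103, 89.6, 89.7, 87.9 and 99.3 after 6 hours and 130.2, 126, 121, 104 and 119 after 1 day. For Tmem135 the mice had 132, 136, 158, 124 and 124 CPM after 2 days, 122, 123, 106, 136 and 127 after 3 days, 112, 126, 101, 128 and 130.2 after 4 days and 129, 116, 133, 153 and 122 after 5 days. At all 6 durations the mice lay above the highest control. Its log2 fold change was 0.41 ± 0.11 (edgeR adjusted p = 0.00694) after 6 hours, a call lost with library totals alone (0.23), 0.95 ± 0.12 (edgeR adjusted p = 3.0e-05) after 2 days and 0.90 ± 0.12 (edgeR adjusted p = 1.1e-05) after 5 days. Pxmp4, a membrane protein of unclear function, was lower after 6 hours (−0.43 ± 0.14, edgeR adjusted p = 0.0186) and higher after 5 days (0.72 ± 0.15, edgeR adjusted p = 0.00109), a rise of 1.15 ± 0.16 (edgeR adjusted p = 1.5e-05) between the 2 times. Its early call was lost without the 6-hour replicate 2 or 5 (−0.36 to −0.34), and in one fit of all 7 groups (−0.41). Its call after 4 days (0.41) was lost without room temperature replicate 2, 4 or 5 or the 4-day replicate 1, 4 or 5 (0.32 to 0.44), and with library totals alone (0.26).

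**Figure D5:**
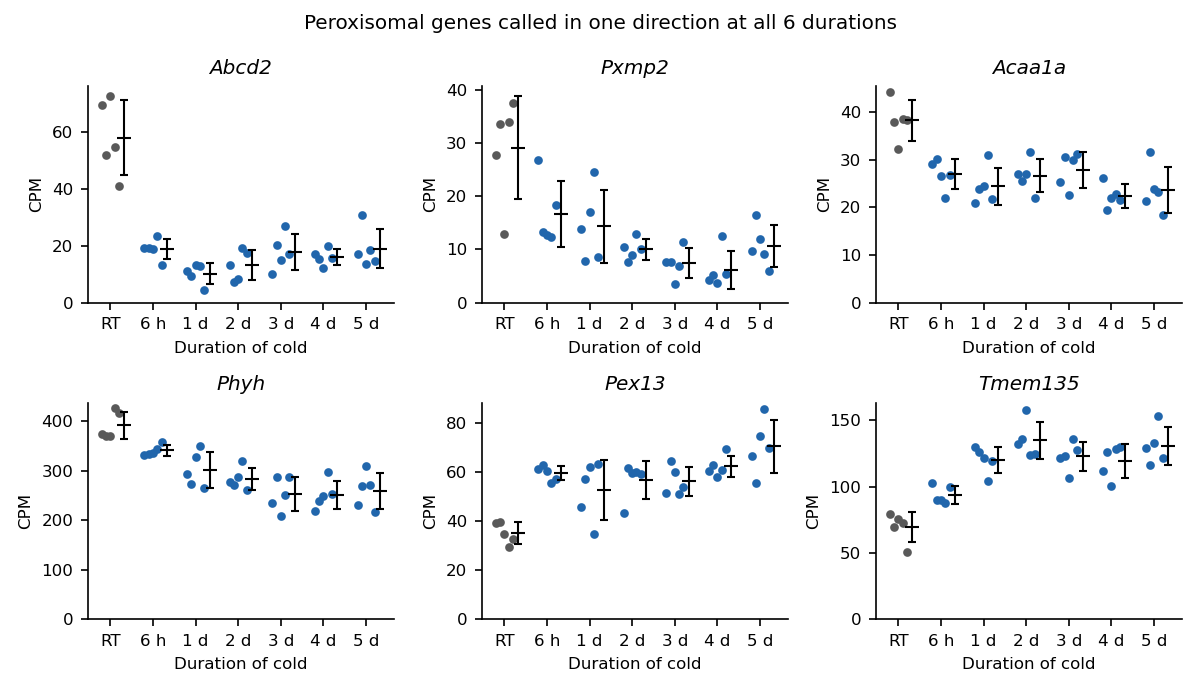
CPM (vertical axes, each from 0) of the 6 genes called in one direction at all 6 durations, in each mouse (points, grey for room temperature, blue for cold), with the mean and SD of the 5 mice beside them in black. Abcd2, Acaa1a and Phyh lie below and Tmem135 above every control in all cold-exposed mice, while Pxmp2 overlaps the controls except after 3 and 4 days, and Pex13 overlaps them in 1 mouse after 1 day.

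Other peroxisomal genes, a list of 32 with 29 tested, were counted beside the members. After 6 hours 12 were lower (41.4%, against 21.0% of all genes) and 8 higher (27.6%, against 21.5%), with a median of −0.27 on the log2 scale. After 5 days 2 were lower (6.90%, against 18.6%) and 16 higher (55.2%, against 20.2%), with a median of 0.41. The largest rises after 5 days were in Slc25a17 (1.85, edgeR adjusted p = 4.0e-08), a carrier of cofactors across the peroxisomal membrane, and the thioesterase Acot8 (1.53, edgeR adjusted p = 1.3e-06). The falls were in Paox (−0.63, edgeR adjusted p = 0.0182), a polyamine oxidase, and Pecr (−0.55, edgeR adjusted p = 0.00497), an enoyl-CoA reductase. Acox2, Pipox and Far2 had too few counts to be tested. For mitochondrial fatty acid oxidation, 16 of 17 listed genes were tested, all except Cpt1b. Of these, 4 were lower (25%) and 2 higher (12.5%) after 6 hours, where 21.0% and 21.5% of all genes were, with a median of −0.17. The share called lower was near that of all genes. After 5 days 2 were lower (12.5%) and 7 higher (43.8%), with a median of 0.18. With library totals alone, the medians after 5 days were 0.17 for the other peroxisomal genes and −0.06 for the mitochondrial genes. The largest rises there were in Cpt2 (1.10, edgeR adjusted p = 6.2e-07) and Slc25a20 (0.72, edgeR adjusted p = 1.3e-04), which bring acyl groups into mitochondria, and the falls in Acaa2 (−0.67, edgeR adjusted p = 6.2e-05), a thiolase, and Etfb (−0.42, edgeR adjusted p = 0.00401), an electron carrier. The difference between the peroxisomal and mitochondrial lists was not tested.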

How the data were processed

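QuantSeq 3' FWD libraries from iBAT of 35 mice were read in 76-base reads. The submitters' processing notes name STAR 2.6.1d, HTSeq 0.11.2 and GRCm38. The authors deposited raw read counts per gene, whose setting for strand is not given in the sources used here. Columns were matched to mice by their descriptions, and symbols to 55154 of 55421 Ensembl identifiers. Positions and exon overlaps came from GENCODE M21. Each comparison was fitted on all genes with edgeR 4.0.16 in R 4.3.3 (TMM factors, genes kept by filterByExpr, the quasi-likelihood test and p-values adjusted by Benjamini-Hochberg over the genes kept, with 0.05 as threshold). Standard errors are the size of the log2 fold change divided by the square root of F. Alternatives were DESeq2 1.42.0, RLE factors, library totals alone, no filter, one fit of all 7 groups, the replicate number as a block, and fits with 1 mouse removed. The fits were run on simulated data with a single dispersion and far fewer changed genes than here. That run does not test the choice of scaling. Totals of 3846016 to 6047247 counts per library limit the precision of members with few counts. Members and lists were chosen with earlier results of these data known. Every mouse's values are given for the 8 members with the largest called change against controls (and a mean of at least 5 CPM in 1 group), members called one way at all 6 durations, and their paralogs in the list. Other members are given by group means. Matched protein sequences were not analysed here.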

Additional observations from a re-analysis of the deposited data

Results flagged for a closer look

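Of 91 groups of 5 mice, taken over the 13 members whose values are given mouse by mouse, 7 held 1 mouse far from the other 4. The rule was a gap over range of log2 CPM, not of CPM, above Dixon's critical ratio of 0.71, where chance flags about 1 group in 20. Pxmp2 was low in room temperature replicate 3, at 12.8 CPM. Hacl1 was low in replicate 4 after 1 day, at 2.81 CPM, and in replicate 3 after 3 days, at 6.41 CPM. Acaa1b was high in replicate 1 after 2 days, at 40.3 CPM, and Pex13 was low in the same mouse, at 43.3 CPM. Acox3 was high in replicate 5 after 4 days, at 15.5 CPM, and in replicate 2 after 5 days, at 15.9 CPM.

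The difference between 5 days and 6 hours of cold was tested directly (edgeR, adjusted p below the threshold), and 20 members differed. Of these, 19 were higher and 1 lower after 5 days, where 19.0% and 16.9% of all genes were. In the same comparison 11 of 16 mitochondrial fatty acid oxidation genes were higher and 0 lower, and 17 of 29 other peroxisomal genes were higher and 1 lower. Among genes of import, insertion and division the log2 fold change was 0.74 for Pex7, 0.39 for Pex14, 0.73 for Pex6, 0.40 for Pex16, 0.40 for Pex19, 0.46 for Pex11a and 0.79 for Pex11g. For transport and β-oxidation it was 0.60 for Abcd3, 1.45 for Crot, 0.62 for Acox3, 1.87 for Ehhadh, 0.96 for Hsd17b4, 1.69 for Acaa1b, 1.07 for Amacr and 0.61 for Eci2. The remaining values were −0.38 for Phyh, 1.88 for Hacl1, 0.74 for Gnpat, 1.15 for Pxmp4 and 0.49 for Tmem135.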

How the results depend on the processing

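Library totals in place of TMM factors changed most: members called higher were 1 after 6 hours, 5 after 1 day and 5 after 2 days, and those called lower 14, 10 and 11 after 1, 2 and 5 days. On that scale 12.7%, 10.7% and 8.76% of all genes were higher after 6 hours, 1 day and 2 days. After 1, 2 and 5 days 30.2%, 26.1% and 31.2% of all genes were lower. Members lower after 5 days than after 6 hours were 2, Phyh and Pxmp2, with DESeq2, RLE factors, library totals or no filter. Leaving out 1 mouse at a time gave 2 to 5 higher and 9 to 13 lower after 6 hours, 8 to 9 and 6 to 8 after 1 day, 10 to 11 and 5 to 7 after 2 days, 8 to 10 and 7 to 9 after 3 days, 8 to 13 and 5 to 8 after 4 days, 15 to 17 and 4 to 6 after 5 days, and 17 to 20 and 1 to 2 between 5 days and 6 hours, the 2 without the 6-hour replicate 2, 3 or 4 or the 5-day replicate 2. In the fits with 1 mouse left out, 2018 to 2225 of all genes were higher and 1953 to 2142 lower after 6 hours, of 10755 to 10928 tested. After 5 days 1893 to 2173 were higher and 1691 to 1972 lower, of 10853 to 11038. For all genes after 1, 2, 3 and 4 days, 1739 to 2040, 1462 to 1760, 1702 to 1941 and 1841 to 2121 were higher. Those lower were 1636 to 1866, 1277 to 1625, 1369 to 1613 and 1767 to 1992, of 10796 to 11351 tested. Between 5 days and 6 hours 1733 to 1909 were higher and 1503 to 1709 lower, of 10410 to 10602. Of 145 values of single genes, 143 kept direction and call with DESeq2, 144 with RLE factors, 137 in one fit of all 7 groups, 113 with library totals and 138 without the filter, and 1347 of 1450 did when 1 mouse was left out. Signs turned for Ehhadh after 6 hours (−0.37 to 0.12 with 1 mouse removed, 0.12 without room temperature replicate 2, 0.052 without the 6-hour replicate 5) and for Abcd2 between 5 days and 6 hours (−0.0051 with library totals, −0.072 without the 6-hour replicate 5, −0.20 without the 5-day replicate 2), neither called. The cause was not tested. Same-numbered mice are separate animals whose deviations correlated between −0.19 and 0.14, with at most 2 of 5 pairs over 0.1. The main fits did not pair them, and these correlations cannot exclude a factor shared by mice of the same number. With the replicate block the members called higher and lower were 2 and 14, 9 and 7, 10 and 5, 9 and 7, 11 and 7, 17 and 4 in time order, and 19 and 1 between 5 days and 6 hours, and 140 of 145 values kept their call. With this block 2252 of 10593 genes were higher and 2238 lower after 6 hours. After 5 days 2110 of 10733 were higher and 1917 lower. The genes higher and lower with the block were 1842 and 1767 of 10658 after 1 day and 1525 and 1332 of 10629 after 2 days. They were 1777 and 1511 of 10827 after 3 days and 1919 and 1828 of 11048 after 4 days. Between 5 days and 6 hours 1911 and 1699 of 10294 were. Depth limits genes with few counts, such as Pex26 and Hacl1.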
